A study of Zea mays with 6 samples.

Results

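The C4 carbon fixation enzyme genes described here are 6 nuclear genes of maize that encode carbonic anhydrase, PEP carboxylase (pep1), pyruvate phosphate dikinase (pdk1), NADP-malic enzyme (me3) and 2 small subunits of Rubisco. They were picked by ID for the known roles of their products in the leaf, and all 6 were found among the 33953 features of the deposited files. Leaf RNA of the inbred maize KN5585 was sequenced, in 3 libraries from transgenic seedlings that carry a heterologous synthesis of poly-γ-glutamic acid, a chain of glutamate units, and in 3 libraries from control seedlings. Both genotypes were at the 3-leaf stage and had been without water for 5 days, when the soil held 9.8% water, so the values compare genotypes under drought and do not measure a drought response. The promoter of the transgene, the number of transformation events and the number of plants behind a library are not stated in the labels. Separate plants for the libraries of a genotype are not stated either, so p-values cover the spread of these libraries, which may be technical.

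In C4 leaves carbon is fixed in 2 steps in neighbouring cell types. In mesophyll cells, carbonic anhydrase turns CO2 into bicarbonate, and PEP carboxylase joins it to phosphoenolpyruvate (PEP) to give a C4 acid. The acid moves to the bundle sheath, where NADP-malic enzyme releases the CO2 beside Rubisco, the enzyme that starts the Calvin cycle, and pyruvate phosphate dikinase rebuilds PEP in the mesophyll from the pyruvate that returns. In maize, transcripts of carbonic anhydrase, pep1 and pdk1 are known to be rich in the mesophyll, and those of me3 and the Rubisco small subunits in the bundle sheath, and all of them are known to be abundant in green leaf blades.

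Levels are the authors' FPKM, which divide fragments by the length of the gene and by the mapped fragments of the library, so that levels of different genes can be set side by side. FPKM summed to between 1226614 and 1238707 in transgenic libraries and to between 1208094 and 1226198 in control libraries. Read counts were not analysed here, so the depth behind each value is unknown. The names of the 6 genes come from the choice of IDs. Neither the files nor the reference gene table, which is of another assembly, pairs these IDs with a symbol. The large subunit of Rubisco (rbcL), which is encoded in the plastid, had 0 features in the files and was not analysed here, nor was the transgene itself. All libraries are labelled as leaf. The 6 genes, which are known to be abundant in green leaf, were above 0 in every library, but a value above 0 is no check of that label. In the libraries labelled as control, pep1 stayed at or below 59.6 FPKM, at ranks 3502 to 5525.

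All 6 genes were higher in transgenic leaves, and in each case every transgenic library lay above every control library. The differences were between 4.94-fold for me3 and 128-fold for pep1 in the ratio of mean FPKM. All 6 passed the test fitted across 22200 features that averaged 1 FPKM or more (limma on log2(FPKM + 1), two-sided, Benjamini-Hochberg adjusted, threshold 0.05). Of all tested features, 27.0% were called higher and 45.9% lower, and 73.0% were called in either direction. Groups were free of overlap with the transgenic side above for 28.0% of all tested features. The median log2 difference of the 6 genes, transgenic minus control, was 5.57, and the median of all tested features was -0.31. Of the 6 genes, 5 were called with a rise of 8-fold or more, which 3.36% of all tested features showed. Among the 137 features that averaged 1000 FPKM or more over the libraries, which include all 6 genes, 59.1% were called higher, 39.4% lower and 48.9% higher by 8-fold or more, with a median log2 difference of 2.44. The highest control mean of the 6 genes was 885 FPKM, for me3, so all 6 passed this cut through their transgenic values. These shares are therefore not a neutral background for the 6 genes.

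**Figure D1:**
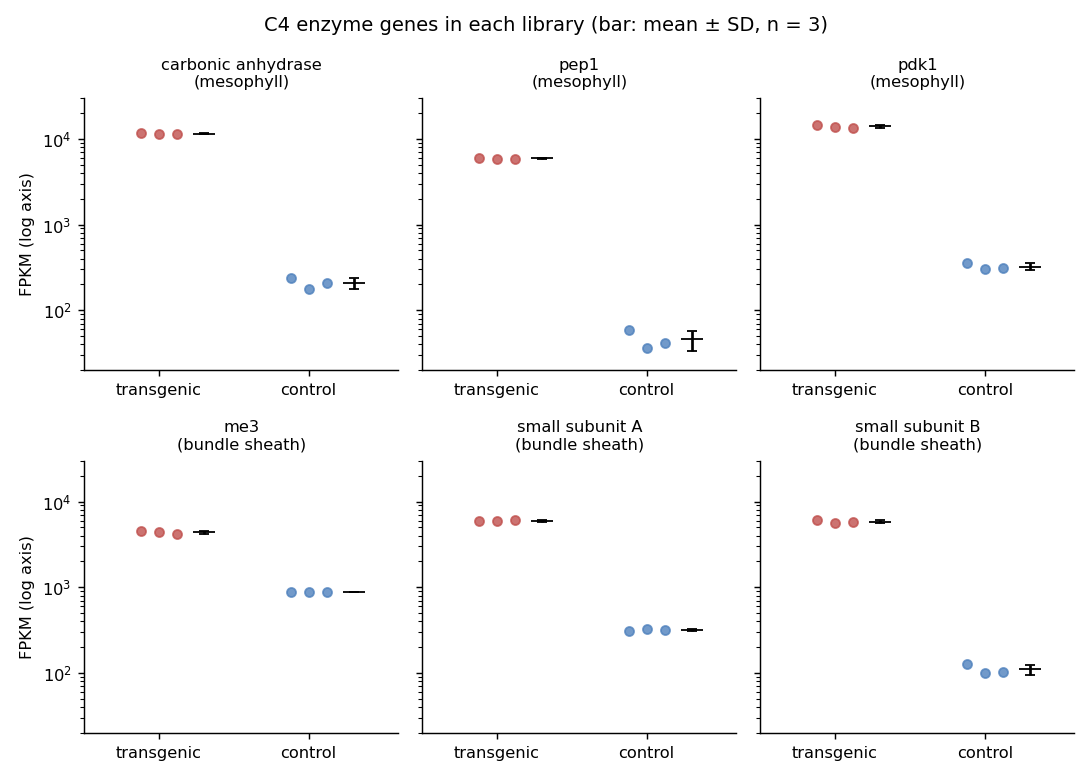
FPKM of each of the 6 genes in the 3 transgenic and 3 control libraries, on a log axis, with 1 point per library and the mean ± SD beside the points. Every transgenic point lies above every control point, with the narrowest gap for me3 (4186 against 887 FPKM) and the widest for pep1 (5853 against 59.6 FPKM).

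Of the mesophyll genes, carbonic anhydrase (Zm00001d044099), which supplies bicarbonate to the pathway, had 11677, 11404 and 11344 FPKM in transgenic leaves, against 239.9, 176 and 205 FPKM in control leaves. The transgenic libraries differed little among themselves and stood far above the control libraries. It averaged 11475 ± 177 FPKM in transgenic and 207 ± 31.9 FPKM in control leaves (SD, n = 3 each), and rose by 5.80 on the log2(FPKM + 1) scale, with an SE of 0.09 (limma, adjusted p = 2.17e-10). It ranked 6 to 7 among all features of a transgenic library and 679 to 1003 in a control library.

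PEP carboxylase (pep1, Zm00001d046170), the enzyme of the first carboxylation, had 5975, 5853 and 5892.5 FPKM in transgenic leaves, against 59.6, 36.6 and 41.7 FPKM in control leaves. The group means were 5907 ± 62.4 and 46.0 ± 12.1 FPKM in transgenic and control leaves (SD, n = 3 each). Its rise of 7.00 on the log2 scale, with an SE of 0.15 (limma, adjusted p = 8.7e-10) was the largest of the 6 genes and ranked 7 among all tested features. Over single pairs of a transgenic and a control library the ratio ran from 98.2 to 163. The libraries of this gene had a coefficient of variation of 1.06% in transgenic and 26.2% in control leaves. The gene was at rank 20 in every transgenic library and between ranks 3502 and 5525 in control libraries.

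Pyruvate phosphate dikinase (pdk1, Zm00001d038163), which regenerates the acceptor PEP, had 14589.5, 13829 and 13406 FPKM in transgenic leaves, against 356, 299.5 and 315 FPKM in control leaves. It was the most abundant transcript of 2 transgenic libraries and ranked 3 in the other. In control libraries it ranked 420 to 529. Its mean was 13942 ± 599.9 FPKM in transgenic and 324 ± 29.2 FPKM in control leaves (SD, n = 3 each), a rise of 5.43 on the log2 scale, with an SE of 0.07 (limma, adjusted p = 5.52e-11). With quantile normalization the rise was 6.21. The gene is known to give both a plastid and a cytosolic form from separate promoters, and a value per gene cannot tell these apart.

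Of the bundle sheath genes, NADP-malic enzyme (me3, Zm00001d000316), which releases CO2 from malate, had 4538, 4405 and 4186 FPKM in transgenic leaves, against 887, 885 and 884.5 FPKM in control leaves. The groups were apart, and the control libraries were almost equal, with a coefficient of variation of 0.148%. Its mean was 4376 ± 178 FPKM in transgenic and 885 ± 1.31 FPKM in control leaves (SD, n = 3 each). This was the smallest rise of the 6, by 2.30 on the log2 scale with an SE of 0.04 (limma, adjusted p = 3.4e-10), and 94.3% of all tested features had a lower difference. With quantile normalization it was 1.61. In control leaves me3 was the most abundant of the 6 genes, at ranks 133 to 145, and in transgenic leaves it was the least abundant, at ranks 37 to 43.

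Rubisco holds small subunits that are made in the cytosol and imported into the plastid. Small subunit A (Zm00001d052595) had 5978, 5855 and 6167 FPKM in transgenic leaves, against 313, 327 and 315 FPKM in control leaves, and rose by 4.23 on the log2 scale with an SE of 0.04 (limma, adjusted p = 3.17e-11). Small subunit B (Zm00001d004894) had 6132, 5592 and 5773 FPKM in transgenic leaves, against 127, 101 and 103 FPKM in control leaves, and rose by 5.72, with an SE of 0.09 (limma, adjusted p = 1.42e-10). The letters A and B are used here for convenience. The means of A were 5999.97 ± 157 FPKM in transgenic and 318 ± 7.49 FPKM in control leaves, and those of B 5832 ± 275 FPKM in transgenic and 110.5 ± 14.6 FPKM in control leaves (SD, n = 3 each).

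The pair stood at nearly the same level in transgenic leaves and at different levels in control leaves. The ratio of A to B was 0.975, 1.05 and 1.07 in transgenic libraries, against 2.46, 3.23 and 3.06 in control libraries. The groups did not overlap, and a single scaling factor per library leaves this ratio as it is. On the log2(FPKM + 1) scale the ratio of A to B was 0.04 ± 0.07 in transgenic and 1.53 ± 0.21 in control libraries. The difference was -1.48 (exact permutation test, two-sided, p = 0.1, which is the smallest p that 3 against 3 libraries allow). The test therefore could not pass 0.05. Small subunit genes of a plant are known to be alike in sequence, and the reference gene table holds 2 entries with the synonym rbcS. How the authors counted reads that match both is not stated in the labels, so the split between A and B is uncertain.

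**Figure D2:**
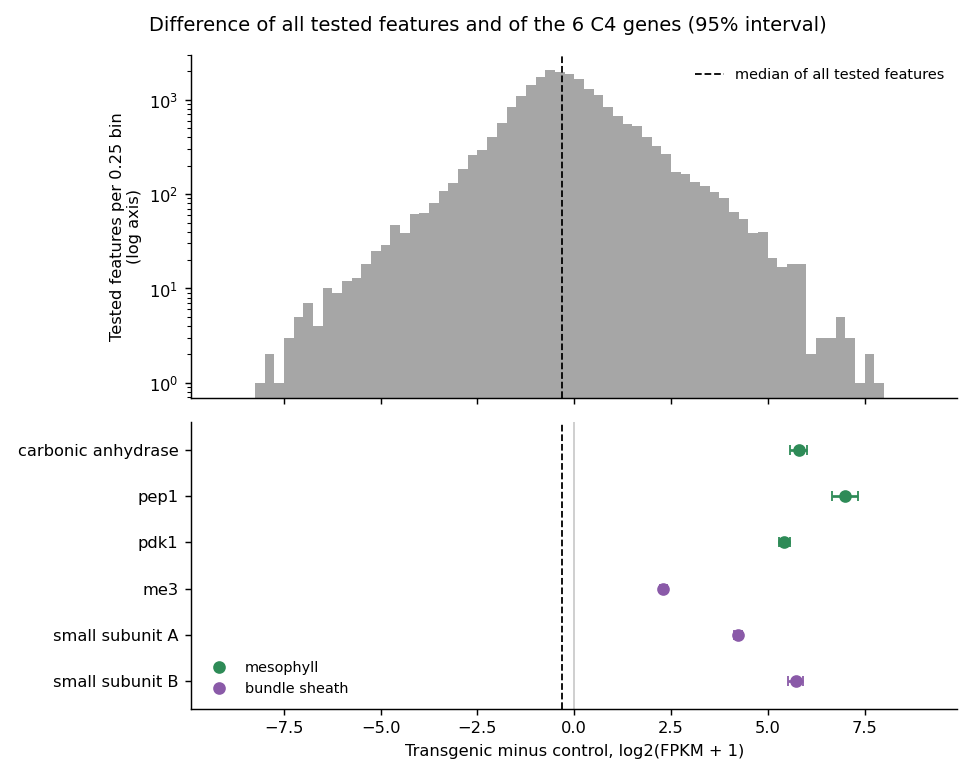
Upper panel, the number of tested features (log axis) by their difference on the log2(FPKM + 1) scale, transgenic minus control; lower panel, the difference of each of the 6 genes with its 95% interval from limma, coloured by cell type. All 6 points lie right of 0 and of the dashed median of all features at -0.31, from 2.30 for me3 to 7.00 for pep1.

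The 6 genes did not rise by the same amount. The 95% intervals of the log2 differences were 2.21 to 2.40 for me3, 4.14 to 4.33 for small subunit A, 5.28 to 5.58 for pdk1, 5.52 to 5.91 for small subunit B, 5.58 to 6.01 for carbonic anhydrase and 6.67 to 7.34 for pep1. The intervals of me3, small subunit A and pep1 overlapped no other, whereas those of pdk1 and carbonic anhydrase each overlapped that of small subunit B. Both cell types had members with a rise above 5 on this scale, and the smallest rises were those of bundle sheath genes.

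The order of the levels differed between the genotypes. In transgenic leaves it ran from pdk1 through carbonic anhydrase, small subunit A, pep1 and small subunit B to me3. Of the 3 in the middle, the library ranges of A and pep1, and of pep1 and B, overlapped. Within the same library, A was above pep1 in all 3 libraries, and pep1 was above B in 2 of 3. In control leaves the order ran from me3 through pdk1, small subunit A, carbonic anhydrase and small subunit B to pep1, and there only pdk1 and small subunit A overlapped. The mean of me3 in control leaves was 2.74 times that of pdk1. The gene pep1 had 1.32 to 1.41 times the FPKM of me3 in transgenic libraries, against 0.0414 to 0.0672 times in control libraries.

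Together the 6 genes held 3.99%, 3.82% and 3.78% of all FPKM in the transgenic libraries, against 0.164%, 0.149% and 0.152% in the control libraries. The 3 mesophyll genes summed to between 30642 and 32241 FPKM in transgenic leaves and between 512 and 656 FPKM in control leaves. The 3 bundle sheath genes summed to between 15852 and 16648 FPKM in transgenic leaves and between 1303 and 1327 FPKM in control leaves. The ratio of the mesophyll to the bundle sheath sum was therefore 1.94, 1.96 and 1.90 in transgenic libraries, against 0.494, 0.390 and 0.432 in control libraries. The mesophyll sum was the larger in each transgenic library, and the reverse held in each control library. The reversal in which sum was larger rested on me3, which held 884.5 to 886.9 FPKM of the bundle sheath sum in control libraries. Without me3, small subunits A and B together stayed below the mesophyll sum in every library of both genotypes. With me3 as the only bundle sheath gene the ratio was 7.06 to 7.32 in transgenic libraries and 0.579 to 0.739 in control libraries. These sums describe chosen genes and were not tested. In bulk leaf RNA, fewer cells of a type and less RNA per cell cannot be told apart.

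**Figure D3:**
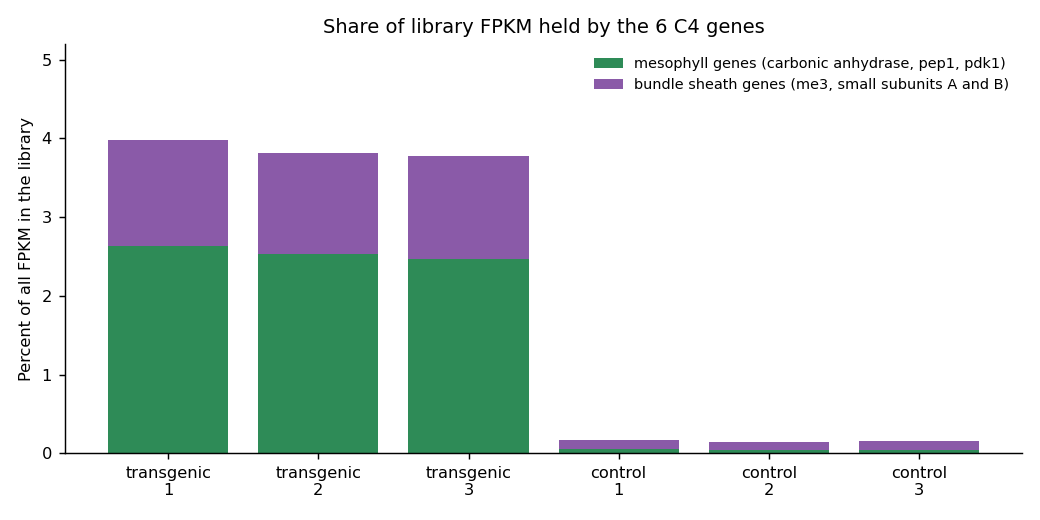
Percent of all FPKM in each library held by the 3 mesophyll genes and, stacked on them, by the 3 bundle sheath genes. Transgenic libraries reach 3.78 to 3.99% and control libraries 0.149 to 0.164%, with the mesophyll part the larger in transgenic and the smaller in control libraries.

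Within the sum of the 6 genes, me3 made up 8.95 to 9.38% in transgenic libraries, against 44.7 to 48.5% in control libraries. The share of pdk1 was 28.7 to 29.8% in transgenic and 16.4 to 17.97% in control libraries, and that of pep1 was 12.2 to 12.6% in transgenic and 2.01 to 3.01% in control libraries. The mesophyll genes also differed among themselves. There were 2.28 to 2.44 times as many FPKM of pdk1 as of pep1 in transgenic libraries and 5.98 to 8.18 times as many in control libraries. For carbonic anhydrase the same ratio to pep1 was 1.93 to 1.95 in transgenic libraries and 4.03 to 4.92 in control libraries.

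**Figure D4:**
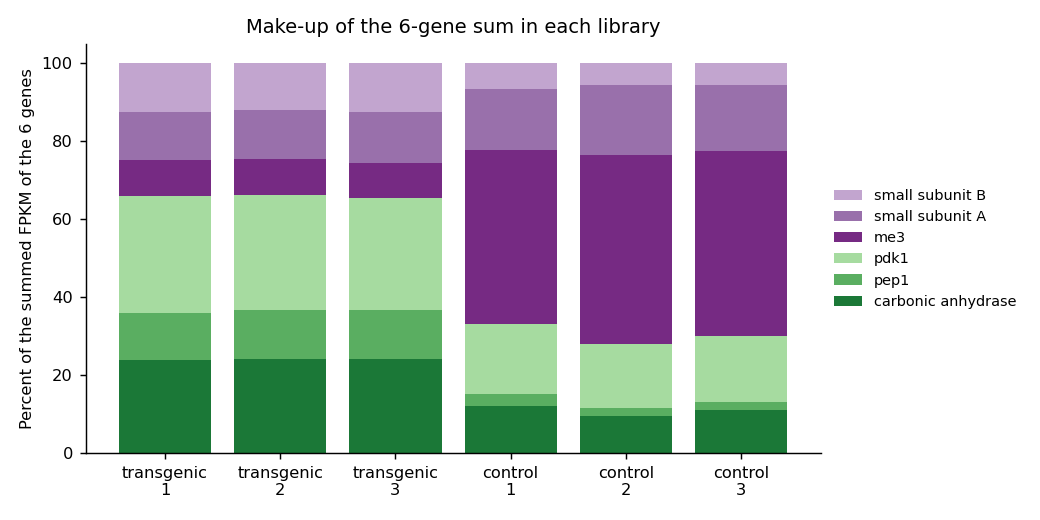
Percent of the summed FPKM of the 6 genes that each gene made up, stacked for each library. The me3 part is 8.95 to 9.38% in transgenic and 44.7 to 48.5% in control libraries, and the pep1 part is 12.2 to 12.6% in transgenic and 2.01 to 3.01% in control libraries.

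The spread between libraries of a genotype differed among the 6 genes. In transgenic libraries the coefficient of variation ran from 1.06% for pep1 to 4.71% for small subunit B. In control libraries it ran from 0.148% for me3 to 26.2% for pep1, and that of carbonic anhydrase was 15.4%. The median coefficient of variation of the 6 genes was 3.34% in transgenic and 11.1% in control libraries, and that of all tested features was 10.7% in transgenic and 14.1% in control libraries. Among the control libraries, replicate 1 had the highest FPKM of 5 of the 6 genes, all but small subunit A. Among the transgenic libraries, replicate 1 was likewise highest for 5, again all but small subunit A. The share of all tested features highest in replicate 1 was not computed, so these counts cannot be called particular to the 6 genes. Without control replicate 1 the rise of pep1 was 7.20, and that of carbonic anhydrase was 5.91.

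The 6 genes lay between 4186 and 14589.5 FPKM in transgenic libraries and between 36.6 and 887 FPKM in control libraries. As they are the genes compared here, their levels are no check of the leaf label. Of the plastid genes looked at as leaf markers, psaA of photosystem I had 33.9 to 43.4 FPKM in transgenic and 3.58 to 4.62 FPKM in control libraries. The photosystem II gene psbB had 1.05 to 2.05 FPKM in transgenic and 2.80 to 4.20 FPKM in control libraries. Plastid features together held 0.496 to 0.570% of FPKM in transgenic and 0.193 to 0.221% in control libraries, and the kit used selects mRNA. Among tested plastid features, 3 of 14 for photosystem II were called higher and 5 lower, 4 of 5 for photosystem I higher and 1 lower, and 4 of 7 for the NDH complex higher and 0 lower. For cytochrome b6f 3 of 6 were higher and 2 lower, and for the ATP synthase 3 of 4 were higher and 0 lower. Differences in leaf age, in the part of the leaf taken or in its cell make-up were not tested as a part of the rise of the 6 genes. Markers of other cell types could not be read, as 0 of 33702 nuclear IDs had a match in the reference gene table.

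Other tested features with a pattern close to each gene were looked for by the smallest root mean square difference of log2(FPKM + 1) over the 6 libraries. The closest fits were those to the Rubisco small subunits, and the fit to pep1 was nearly as close, at a distance of 0.17. For small subunit B the nearest feature was Zm00001d027488, at a distance of 0.15, with 5633 ± 188 FPKM in transgenic and 123 ± 8.01 FPKM in control leaves. For small subunit A it was Zm00001d041819, at a distance of 0.16, with 6802 ± 291 FPKM in transgenic and 315 ± 33.4 FPKM in control leaves (SD, n = 3 each). The files do not pair these IDs with names. Features within a distance of 0.5 numbered 14 for small subunit A, 6 for small subunit B, 5 for carbonic anhydrase, 3 for pep1, 1 for pdk1 and 1 for me3.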

How the data were processed

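RNA-seq libraries of 3 transgenic and 3 control leaf samples were analysed, grouped and numbered by the labels. Per the labels' protocols, 1.3 µg of total RNA went into each library, prepared with the SMARTER mRNA kit. Each deposited file holds the FPKM of 1 library, as the authors computed them, to 2 decimals, per the file headers. Which aligner, counter, annotation and strand setting were used is not given in the sources used here. Mouse builds (GRCm38, mm10) stand in the submitters' processing notes, against maize IDs in the files, so no coordinates are printed. The assembly of the reference gene table was Zm-B73-REFERENCE-NAM-5.0. It matched 251 of 251 organelle and 0 of 33702 nuclear IDs.

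The 22200 features averaging 1 FPKM or more were tested on log2(FPKM + 1), which understates the change of low genes, with limma 3.58.1 in R 4.3.3 (lmFit, eBayes with trend, Benjamini-Hochberg adjustment, threshold 0.05). The fit was also run on simulated data in which few features changed, unlike here, so that run does not check the error rate of these calls. Exact permutation tests used scipy 1.17.1. Differences are transgenic minus control. The alternatives were other pseudocounts, filters, scalings and variance models, a replicate block, and leaving out each library. Deviations of same-numbered libraries had correlations of 0.006, -0.001 and 0.015, and no pairing was assumed. The genes, lists and settings were chosen with earlier results of these data known. The genes named with values are the 6 members, the fixed leaf markers psaA and psbB, and the 2 features nearest in pattern. The other fixed plastid markers, rbcL and the photosystem II gene psbD, had no plastid feature under their symbols.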

Additional observations from a re-analysis of the deposited data

How the results depend on the processing

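The 6 genes kept their direction and their call under all 15 alternatives (90 values), with a largest limma adjusted p of 1.48e-06. The rises ran from 6.77 to 7.39 for pep1, 5.69 to 6.18 for carbonic anhydrase, 5.45 to 6.10 for small subunit B, 5.37 to 6.21 for pdk1, 3.88 to 4.62 for small subunit A and 1.61 to 2.69 for me3. The place of pdk1 below carbonic anhydrase and small subunit B did not hold with quantile normalization, where it rose by 6.21 and they by 5.69 and 5.45. With the replicate number as a block, the largest adjusted p was 5.42e-08, for me3, and 5935 features were higher and 10087 lower, against 5996 and 10199 without the block. Median-of-ratios scaling gave 7986 higher and 7533 lower features, so that 48.5% of calls were lower, against 63.0% as deposited, and moved the median of all tested features to 0.04. On the log2 scale the mesophyll to bundle sheath ratio was 2.15 above control in transgenic leaves, and 3.47 with me3 as the only bundle sheath gene. Leaving out 1 library gave 2.06 to 2.24 for this difference. For the difference in the log2 ratio of small subunit A to B it gave -1.60 to -1.40, where the exact test can then give no p below 0.2. With a pseudocount of 0.1 the difference in the log2 ratio of A to B, transgenic minus control, was -1.49. The planned values for rbcL could not be run, as it has no feature in the files. The depth is unknown, so counting error could not be given.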
